A study of Pelodiscus sinensis with 8 samples.

Results

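Integrins and laminins were followed in the interdigital webs of embryos of the Chinese soft-shell turtle (Pelodiscus sinensis), an aquatic turtle with webbed feet. The genes were chosen by symbol as integrin alpha and beta subunits and laminin alpha, beta and gamma chains, with ITGB2 and LAMB3 left out. The rule found 23 of 19328 genes in the deposited tables, of which 16 encode integrin subunits and 7 laminin chains, and all 23 had enough counts to be tested. Hindlimb webs (tagged "anti-ICD" under genotype) and forelimb webs (tagged "ICD") both came from animals described as wild type at stage TK19, and the labels do not spell the tags out. Each limb gave 4 libraries, with web 1 next to digit I and web 4 next to digit V. Every library pooled 40 pieces of left and right tissue from the same 20 individuals. Each position was therefore pooled once. The p-values rest only on the spread of these pools around each fit, not on repeated pools of a position.

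Integrins are cell surface receptors made of 1 alpha and 1 beta subunit, and the pair decides which matrix protein is bound. Laminins are trimers of an alpha, a beta and a gamma chain that form the sheet-like scaffold of basement membranes, such as the one between epidermis and mesenchyme of the limb. In mouse embryos, loss of the laminin alpha5 chain leaves digits fused, as does loss of the FRAS1 and FREM2 proteins of the epidermal basement membrane.

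The 8 libraries held 53116512 to 65849337 counts. Markers of limb mesenchyme and of epidermis were found in all of them. The 6 mesenchymal markers, PRRX1 and LUM among them, had a summed TPM (transcript abundance scaled by gene length and library size) of 3157 to 3852 in hindlimb webs and 3353 to 4343 in forelimb webs. The 6 epidermal markers summed to 824 to 2646 TPM in hindlimb webs and 844 to 3844 TPM in forelimb webs, most of it from the keratin KRT15. The sums for 6 leukocyte markers were 59.4 to 126 TPM in hindlimb webs and 55.3 to 140 TPM in forelimb webs, and those for 9 endothelial markers were 45.0 to 66.9 TPM in hindlimb webs and 34.1 to 69.1 TPM in forelimb webs. No marker that stood under a symbol had 0 counts in all 8 libraries. In whole tissue, fewer cells of a type and less RNA per cell cannot be told apart.

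Per length, the most abundant members were the laminin beta chain LAMB1, with a mean of 180 TPM over the 8 libraries (range 151 to 212), and ITGB1, the beta subunit shared by most integrins, with 168 TPM (145 to 194). Their ranges overlapped. ITGB5, a partner of the alphaV subunit, followed with 88.3 TPM (73.1 to 107), and LAMC1, the common laminin gamma chain, with 79.5 TPM (70.0 to 89.1). These overlapped each other, and neither overlapped ITGB1 above or LAMA4 below.

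A middle group of 8 genes, LAMA4, ITGA8, ITGA3, ITGAV, ITGA9, ITGA6, LAMA5 and ITGB4, had means of 23.1 to 41.2 TPM, with each range overlapping that of its neighbour. The next gap lay between ITGB4 (18.8 to 27.7 TPM) and ITGB6 (7.73 to 17.7 TPM). ITGB6, ITGA11, ITGB8, LAMA1, ITGA4, LAMA2 and ITGA1 had means of 2.44 to 11.6 TPM. Another gap separated these from ITGAL and ITGAE, subunits of white blood cells, at means of 1.42 and 1.41 TPM, and from ITGA10, a collagen receptor of cartilage, at 0.582 TPM. ITGA3 had 26.1 counts for each TPM against 108 for ITGA6, a protein of similar size, so its gene model was short and its place in the order is uncertain.

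**Figure D1:**
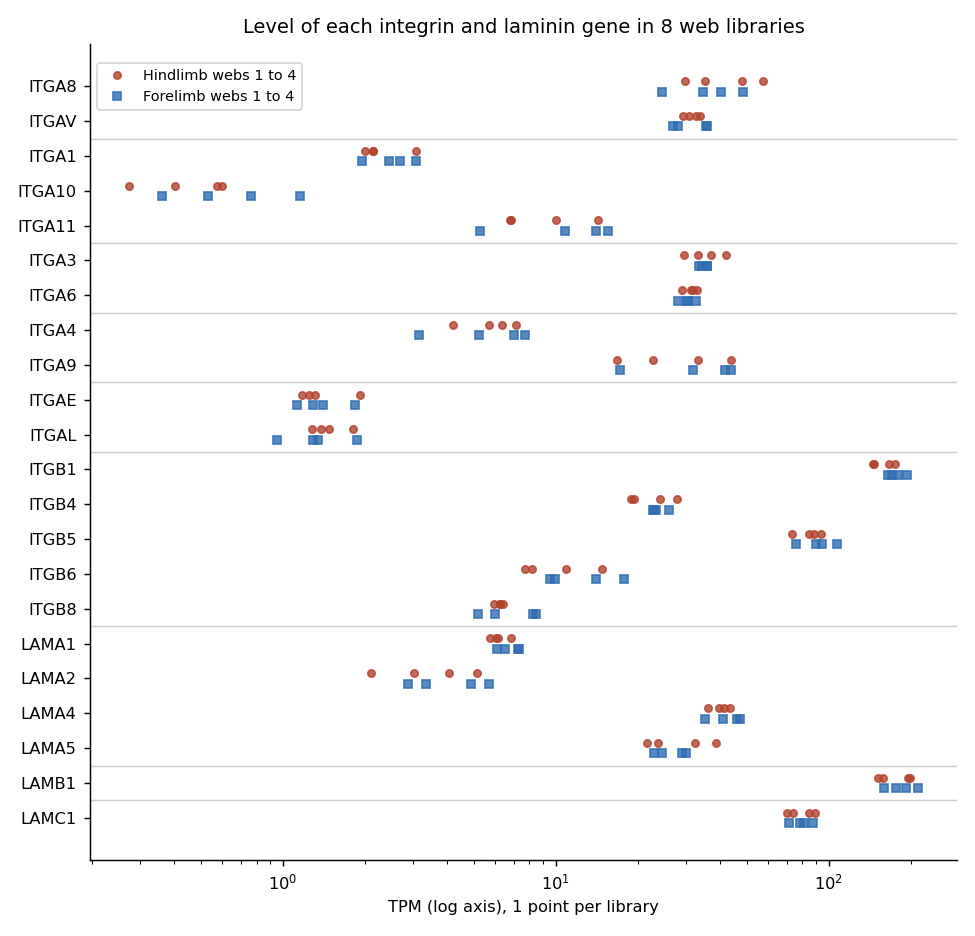
Levels of 22 members in TPM (log axis), 1 point per library, with hindlimb webs 1 to 4 as circles above forelimb webs 1 to 4 as squares; grey lines part the groups by role. LAMB1 and ITGB1 stand highest, at 145 to 212 TPM, and ITGA10 lowest, at 0.273 to 1.16 TPM.

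Position from digit I to digit V was the question of the first comparison. Expression rose toward web 4 in 8 of the 23 members and fell in 2, while 13 did not pass (edgeR quasi-likelihood test of the slope with web number, limb as covariate, Benjamini-Hochberg adjusted p under 0.05 over all 14386 tested genes). Among all tested genes, 11.1% passed, 4.48% rising and 6.65% falling. The members were chosen with earlier results of these data known, so these shares describe them and do not test them. The members' median slope was 0.03 log2 units per web and their median absolute slope 0.13, against 0.00015 and 0.07 over all tested genes. Without hindlimb web 1, 4 members rose and 2 fell, while 322 of 14540 tested genes rose and 553 fell. The members' counts were the same without hindlimb web 3, where 510 of 14561 tested genes rose and 762 fell. Members also had higher counts, with a median of 2151 per library against 1175 over all tested genes. Counts grow with gene length as well as with abundance. Every library came from the same individuals, and libraries of the same web from the 2 limbs share a position. All entered the fit as unrelated, which can make p too small. Below, a value per library is in CPM, the count scaled to library size with TMM factors.

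Among receptors of RGD-containing ligands, ITGA8, whose product pairs with beta1 and binds nephronectin, had 105, 133, 177 and 215 CPM in hindlimb webs 1 to 4 and 87.6, 119, 141 and 183 CPM in forelimb webs 1 to 4. It was higher at each step in both limbs, a pattern shared by 1.8% of tested genes, while no member was lower at each step, as 2.02% of tested genes were. Its fitted change from web 1 to web 4 was 2.06-fold. The slope was 0.35 ± 0.024 log2 units per web (SE; edgeR, adjusted p = 2.1e-05, n = 8 libraries). ITGAV, the alphaV subunit that joins several beta subunits, had 156, 160, 174 and 182 CPM in hindlimb webs 1 to 4 and 139, 179, 181 and 152 CPM in forelimb webs 1 to 4. In the forelimb it was highest in the middle webs, and its slope of 0.06 ± 0.038 did not pass (adjusted p = 0.35).

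ITGA9 and ITGA4 form a subfamily of alpha subunits that bind fibronectin, tenascin C or the cell adhesion protein VCAM1, depending on the subunit. ITGA9 had 47.4, 69.2, 98.6 and 132 CPM in hindlimb webs 1 to 4 and 49.3, 88.2, 125 and 127 CPM in forelimb webs 1 to 4. Like ITGA8 it was higher at every step in both limbs, and its slope of 0.48 ± 0.048 was the steepest rise among the 23 members (edgeR, adjusted p = 0.00016), a fitted 2.70-fold from web 1 to web 4. ITGA4 had 17.6, 28.8, 31.4 and 25.3 CPM in hindlimb webs 1 to 4 and 13.4, 21.4, 29.5 and 34.7 CPM in forelimb webs 1 to 4. The hindlimb was highest in web 3 and the forelimb in web 4. ITGA4 passed over all 8 libraries (0.32 ± 0.079, adjusted p = 0.024), and the call was lost on leaving out web 1 or 3 of the hindlimb or web 1 or 4 of the forelimb (adjusted p 0.051 to 0.15).

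Of the 3 collagen receptors, 1 fell and 2 did not pass. ITGA11, a receptor for fibrillar collagen on mesenchymal cells, had 31.7, 24.0, 15.9 and 16.0 CPM in hindlimb webs 1 to 4 and 34.8, 30.5, 23.9 and 12.5 CPM in forelimb webs 1 to 4. It fell toward web 4 with a slope of -0.41 ± 0.059 (edgeR, adjusted p = 0.0013), to a fitted 0.428 of the web 1 level. ITGA10 had a like slope of -0.45 ± 0.14 at 33 to 144 counts per library and did not pass (adjusted p = 0.061). ITGA1, a receptor for basement membrane collagen, had 6.08, 4.53, 4.11 and 4.47 CPM in hindlimb webs 1 to 4 and 5.37, 5.93, 4.82 and 4.12 CPM in forelimb webs 1 to 4, with a slope of -0.15 ± 0.071 that did not pass (adjusted p = 0.23). ITGA1 overlaps ITGA2 in the RefSeq annotation of the ASM4963464v1 assembly, and with no strand setting given its counts may hold reads of that neighbour. Whether the gene models counted here overlap was not tested. Beside these genes, 2 of 4 tested tendon markers fell toward web 4, TNMD (-1.45 ± 0.28, adjusted p = 0.0067) and MKX (-0.69 ± 0.16, adjusted p = 0.018), and KERA rose (0.55 ± 0.032, adjusted p = 8.5e-06). Of all tested genes, 6.65% fell and 4.48% rose. The summed tendon markers, mostly KERA, were 117 to 249 TPM in hindlimb webs and 109 to 266 TPM in forelimb webs. Their part in the ITGA11 slope was not tested.

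Laminin receptors of the alpha3 and alpha6 type did not pass. ITGA3, with 15.1, 13.4, 16.7 and 20.8 CPM in hindlimb webs 1 to 4 and 14.2, 15.4, 16.2 and 17.3 CPM in forelimb webs 1 to 4, had a slope of 0.13 ± 0.046 (edgeR, adjusted p = 0.10). ITGA6, which joins beta4 in the hemidesmosomes that anchor the epidermis, had 58.8, 57.8, 63.4 and 61.3 CPM in hindlimb webs 1 to 4 and 61.1, 55.4, 51.6 and 59.7 CPM in forelimb webs 1 to 4. The spread of ITGA6 over webs was thus small, and its slope was 0.01 ± 0.033 (adjusted p = 0.95).

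Of the 5 beta subunits, 2 rose and 3 did not pass, beside 4.48% of all tested genes rising and 6.65% falling. ITGB6, an epithelial partner of alphaV that activates latent TGF-beta, had 24.6, 28.1, 36.1 and 49.5 CPM in hindlimb webs 1 to 4 and 31.9, 29.7, 44.8 and 60.5 CPM in forelimb webs 1 to 4. Web 4 was the highest web in each limb, and the slope was 0.34 ± 0.043 (edgeR, adjusted p = 0.00061), a fitted 2.01-fold from web 1 to web 4. ITGB4 had 57.9, 60.6, 75.7 and 88.1 CPM in hindlimb webs 1 to 4 and 69.5, 67.7, 78.6 and 75.4 CPM in forelimb webs 1 to 4. It passed at 0.14 ± 0.037 (adjusted p = 0.039), but of the 8 fits that leave out a library it passed in 2, those without web 1 or web 4 of the forelimb. In the other 6, which leave out 1 of the 4 hindlimb webs or web 2 or 3 of the forelimb, the adjusted p was 0.054 to 0.21.

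ITGB1 had 545, 581, 629 and 680 CPM in hindlimb webs 1 to 4 and 595, 634, 689 and 657 CPM in forelimb webs 1 to 4, with a slope of 0.08 ± 0.025 that did not pass (edgeR, adjusted p = 0.064). ITGB5 had 224, 256, 225 and 197 CPM in hindlimb webs 1 to 4 and 243, 267, 229 and 207 CPM in forelimb webs 1 to 4, highest in web 2 and lowest in web 4 of each limb. Its slope was -0.08 ± 0.035 (adjusted p = 0.16). Of the summed TPM of the 5 beta subunits, ITGB1 made up 53.5% to 58.8% and ITGB5 24.7% to 34.4%.

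Of the 7 laminin chains, 3 rose, 1 fell and 3 did not pass, beside 4.48% of all tested genes rising and 6.65% falling. The rises of LAMB1 and LAMC1, given below, did not hold in all fits that leave out a library. LAMA5, the alpha5 chain of most epithelial basement membranes, had 199, 195, 285 and 343 CPM in hindlimb webs 1 to 4 and 194, 201, 243 and 271 CPM in forelimb webs 1 to 4. Webs 3 and 4 lay above webs 1 and 2 in each limb, and LAMA5 rose with a slope of 0.23 ± 0.037 (edgeR, adjusted p = 0.0023), a fitted 1.62-fold. LAMA2, the alpha chain of muscle and Schwann cell basement membranes, had 30.5, 25.9, 18.8 and 13.2 CPM in hindlimb webs 1 to 4 and 29.4, 33.2, 19.8 and 18.3 CPM in forelimb webs 1 to 4. It fell with a slope of -0.35 ± 0.056 (adjusted p = 0.0024), and webs 3 and 4 lay below webs 1 and 2 in each limb.

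LAMA4, the alpha chain of vessels and of mesenchyme, had 184, 166, 185 and 179 CPM in hindlimb webs 1 to 4 and 177, 198, 197 and 162 CPM in forelimb webs 1 to 4. LAMA4 (-0.02 ± 0.034, edgeR adjusted p = 0.79) and LAMA1 (0.03 ± 0.039, adjusted p = 0.64), an early embryonic alpha chain at 30.4 to 39.0 CPM, did not pass. Per length, LAMA4 made up 55.6%, 53.2%, 49.4% and 45.7% of the 4 measured alpha chains in hindlimb webs 1 to 4 and 54.5%, 55.8%, 53.8% and 47.5% in forelimb webs 1 to 4. LAMA5 made up 30.5%, 31.9%, 38.8% and 44.8% in hindlimb webs 1 to 4 and 30.4%, 28.9%, 33.7% and 40.5% in forelimb webs 1 to 4. By TPM, LAMA4 led in all 8 libraries, by the least in web 4 of the hindlimb. In CPM, which is not scaled by length, LAMA5 was the higher of these 2 genes in every library. LAMA4 had 250 counts for each TPM and LAMA5 490, so their order rests on the lengths of the gene models.

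The chains that complete the common trimers with LAMA5 and LAMA4 rose too. LAMB1 had 526, 543, 692 and 685 CPM in hindlimb webs 1 to 4 and 535, 623, 707 and 628 CPM in forelimb webs 1 to 4, and LAMC1 had 278, 283, 333 and 355 CPM in hindlimb webs 1 to 4 and 273, 299, 329 and 316 CPM in forelimb webs 1 to 4. In both genes web 1 was the lowest in each limb, and the forelimb peaked in web 3. LAMC1 passed at 0.10 ± 0.027 (edgeR, adjusted p = 0.029) and lost the call on leaving out web 1, 3 or 4 of the hindlimb or web 1 of the forelimb (adjusted p 0.057 to 0.13). LAMB1 passed at 0.12 ± 0.035 (adjusted p = 0.049) and kept the call in 1 of the 8 fits that leave out a library, that without forelimb web 4. In the other 7 its adjusted p was 0.052 to 0.20. With libraries scaled by size alone, LAMB1, LAMC1 and ITGB4 all missed the threshold (adjusted p 0.11, 0.076 and 0.074).

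**Figure D2:**
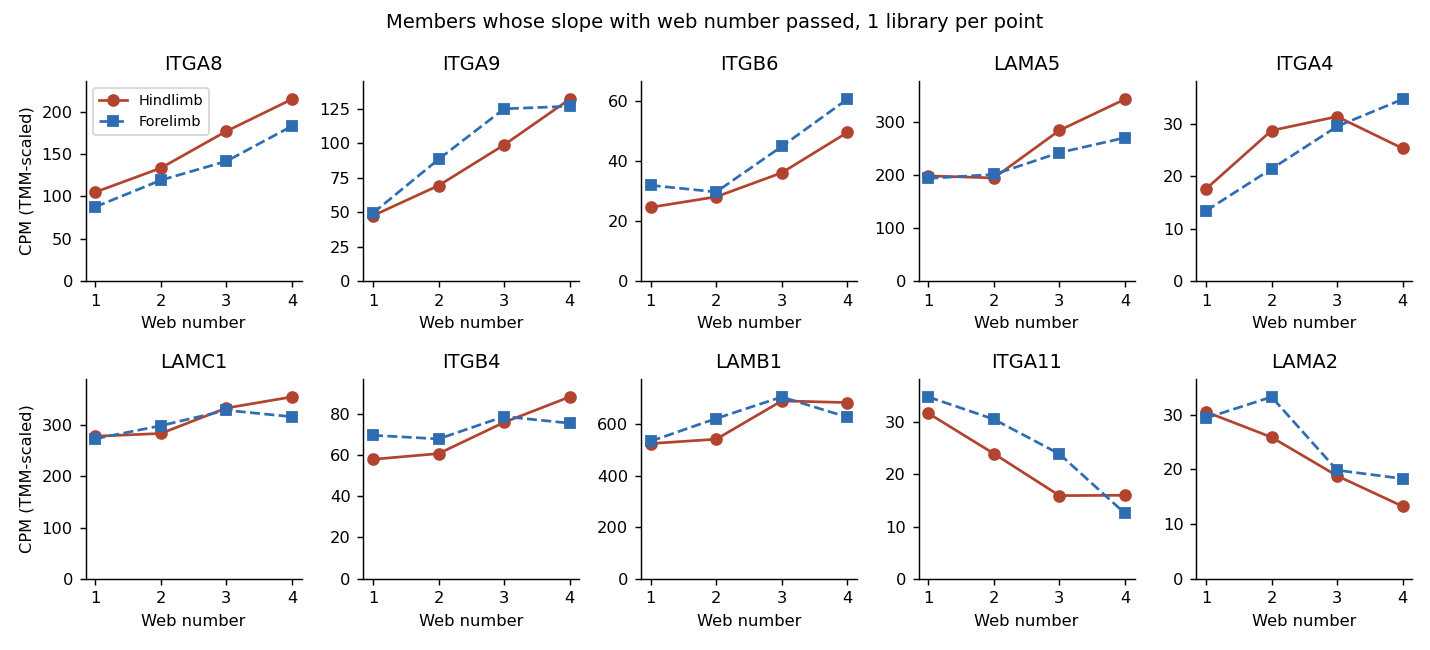
CPM of the 10 members whose slope passed, by web number, with the hindlimb as circles and the forelimb as squares, 1 library per point and each vertical axis starting at 0. The first 8 panels rise toward web 4, ITGA9 most steeply, and the last 2, ITGA11 and LAMA2, fall.

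Marker genes of cell types moved with web number too, beside 4.48% of all tested genes rising and 6.65% falling. The marker lists were chosen with earlier results of these data known. Of 6 epidermal markers 4 fell toward web 4, among them KRT15 (-0.81 ± 0.067, adjusted p = 3.7e-05) and the desmosomal gene DSP (-0.48 ± 0.068, adjusted p = 0.0011), and TP63, a factor of basal epidermal cells, rose (0.22 ± 0.048, adjusted p = 0.014). The epidermal sum, mostly KRT15, averaged 3245, 1896, 918 and 834 TPM over webs 1 to 4. It fell while ITGB6, ITGB4 and LAMA5, epithelial genes among the members, rose, as TP63 did. The ITGB4 call was lost in 6 of the 8 fits that leave out a library. Not all epithelial genes rose. ITGA6 (0.01 ± 0.033, edgeR adjusted p = 0.95), COL17A1 of the hemidesmosome (0.03 ± 0.043, adjusted p = 0.77) and the kindlin FERMT1 (0.03 ± 0.031, adjusted p = 0.66) did not pass. EPCAM did not pass (-0.10 ± 0.057, edgeR adjusted p = 0.31). Among 6 skeletal muscle markers the lowest adjusted p was 0.098 in edgeR, with 3 at an unadjusted p under 0.05, and their sum ran from 53.9 to 230 TPM in hindlimb webs and 39.6 to 154 TPM in forelimb webs, highest in web 1 of each limb. Of 6 nerve and Schwann cell markers 2 fell, SOX10 among them (-0.29 ± 0.049, adjusted p = 0.0030), and the 6 summed to 9.08 to 17.9 TPM in hindlimb webs and 9.54 to 20.6 TPM in forelimb webs. Of 8 cartilage markers COL2A1 rose (0.19 ± 0.042, adjusted p = 0.012) and SOX9 fell (-0.11 ± 0.029, adjusted p = 0.039), with sums of 208 to 280 TPM in hindlimb webs and 239 to 260 TPM in forelimb webs. Of the 6 mesenchymal markers LUM (0.67 ± 0.052, adjusted p = 2.7e-05) and TWIST2 (0.40 ± 0.051, adjusted p = 0.00056) rose, PRRX1 fell (-0.30 ± 0.064, adjusted p = 0.012) and 3 did not pass. Endothelial markers fell in 3 of 9 cases, PECAM1 among them (-0.28 ± 0.079, adjusted p = 0.045). The 2 tested red cell markers, HBZ (-0.07 ± 0.092, edgeR adjusted p = 0.68) and SLC4A1 (-0.16 ± 0.13, adjusted p = 0.49), did not pass. The marker calls were not followed in fits that leave out a library. The part of any of these cell types in the slopes of the members was not tested.

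The integrins of white blood cells were scarce. ITGAL had 3.91, 3.23, 2.90 and 3.40 CPM in hindlimb webs 1 to 4 and 4.10, 2.86, 2.79 and 2.21 CPM in forelimb webs 1 to 4, and ITGAE had 3.16, 2.33, 2.15 and 2.04 CPM in hindlimb webs 1 to 4 and 1.88, 2.09, 3.01 and 2.49 CPM in forelimb webs 1 to 4. ITGAL was highest in web 1 of each limb, while ITGAE followed no common order. Neither passed (edgeR, adjusted p = 0.25 and 0.94), although 4 of 6 leukocyte markers fell toward web 4, against 6.65% of all tested genes. CSF1R was among these markers (-0.38 ± 0.069, edgeR adjusted p = 0.0049).

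Partner genes were read from 4 lists, beside 4.48% of all tested genes rising and 6.65% falling in the same fit. These lists too were chosen with earlier results known, so the shares are no test of them. In a list of integrin ligands and matrix proteins outside laminin, 3 of 16 tested genes rose and 1 fell, the risers being FREM2 (0.57 ± 0.067, edgeR adjusted p = 0.00033) and FRAS1 (0.44 ± 0.067, adjusted p = 0.0017), which form a complex in the basement membrane under the epidermis and are counted in this list, and the fibrillin FBN2 (0.17 ± 0.048, adjusted p = 0.049). FREM2 had 28.4, 37.1, 74.7 and 88.1 CPM in hindlimb webs 1 to 4 and 19.9, 40.4, 61.7 and 62.1 CPM in forelimb webs 1 to 4, and FRAS1 had 25.8, 27.5, 50.7 and 58.6 CPM in hindlimb webs 1 to 4 and 16.6, 35.1, 41.6 and 44.8 CPM in forelimb webs 1 to 4. The matricellular gene CCN2 fell (-0.33 ± 0.092, adjusted p = 0.041). Nephronectin, NPNT, had 71.4 to 96.6 CPM in hindlimb webs and 79.4 to 130 CPM in forelimb webs without passing (-0.10 ± 0.059, adjusted p = 0.32). Of the 8 fits that leave out a library, FBN2 passed in those without web 2 or web 4 of the forelimb and missed in the other 6 (adjusted p 0.068 to 0.27). CCN2 missed in 5, those without web 1, 2 or 4 of the hindlimb or web 2 or 4 of the forelimb (adjusted p 0.064 to 0.19).

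In the list of other basement membrane genes, which lacks FREM2 and FRAS1, 4 of 15 rose and 2 fell. FBLN1, a fibulin (0.17 ± 0.026, edgeR adjusted p = 0.0016), the calcium-binding matrix protein SMOC2 (0.20 ± 0.032, adjusted p = 0.0021) and the laminin-binding proteoglycan AGRN (0.24 ± 0.040, adjusted p = 0.0032) rose, as did the peroxidase PXDN, which crosslinks collagen IV (0.12 ± 0.031, adjusted p = 0.031). PXDN passed in neither limb fitted alone (edgeR, adjusted p = 0.054 in the hindlimb and 0.40 in the forelimb). FBLN1, SMOC2 and AGRN passed in the hindlimb alone and missed in the forelimb alone. The PXDN call was not followed in fits that leave out a library. The collagen IV chains COL4A1 (-0.33 ± 0.052, adjusted p = 0.0020) and COL4A2 (-0.30 ± 0.054, adjusted p = 0.0043) fell, while COL4A5 and COL4A6 had slopes of 0.14 ± 0.066 and 0.13 ± 0.045 and did not pass (adjusted p = 0.22 and 0.086). COL4A1 stood at 50.4, 37.5, 32.9 and 23.7 CPM in hindlimb webs 1 to 4 and at 39.0, 42.6, 33.1 and 20.6 CPM in forelimb webs 1 to 4, lowest in web 4 of each limb.

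Of 10 other laminin receptors and hemidesmosome genes, DST, whose epithelial form links beta4 to keratin filaments, rose (0.25 ± 0.040, edgeR adjusted p = 0.0025) and 9 did not pass. Of 21 integrin adaptors and focal adhesion genes, 3 rose, the tensin TNS3 (0.23 ± 0.042, adjusted p = 0.0049), paxillin, PXN (0.19 ± 0.038, adjusted p = 0.0086), and the kinase SRC (0.17 ± 0.039, adjusted p = 0.019). PARVB, a parvin (-0.14 ± 0.024, adjusted p = 0.0041), and FERMT3, the kindlin of blood cells (-0.32 ± 0.075, adjusted p = 0.019), fell. The 5 calls among adaptors compare with 11.1% of all tested genes. Leaving out web 1 of the hindlimb ended the PXN call (adjusted p = 0.062). That of SRC ended on leaving out web 1 or 4 of the hindlimb or web 1 of the forelimb (0.096 to 0.11), and that of FERMT3 on leaving out web 1 or 4 of the forelimb (0.062 to 0.083).

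**Figure D3:**
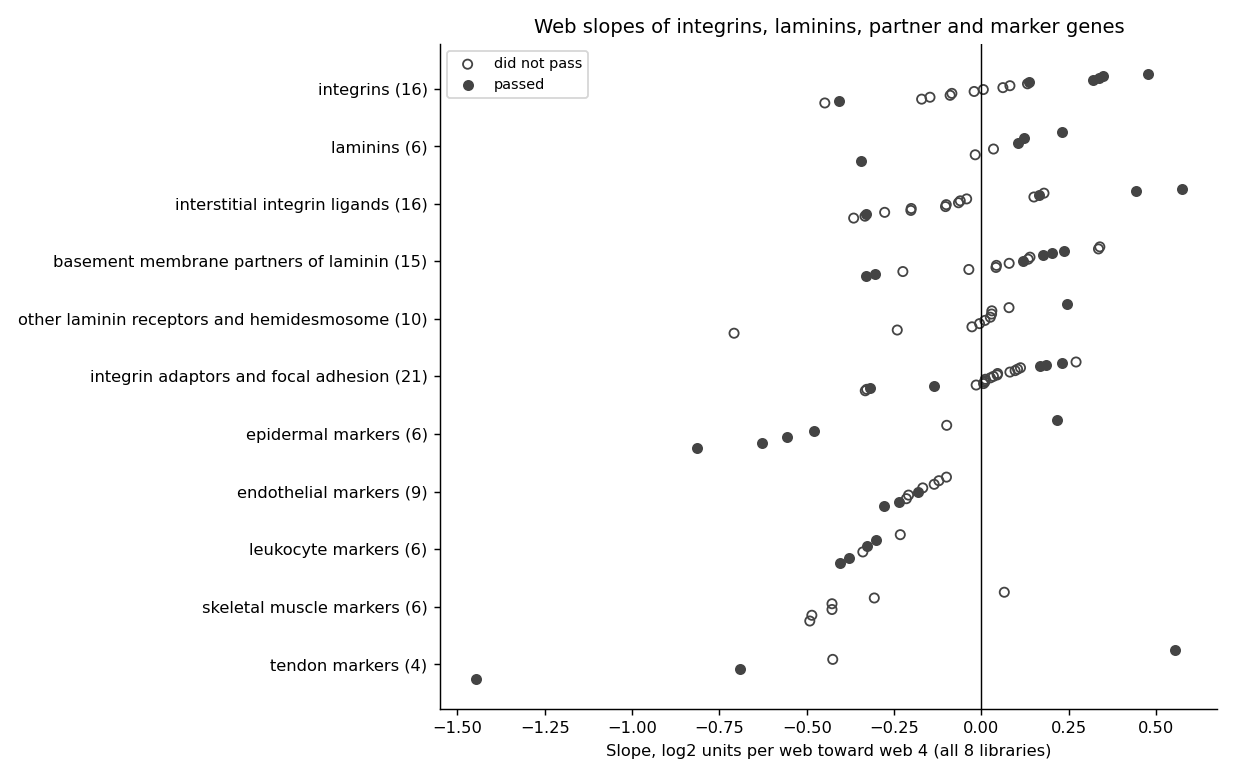
Slope with web number in log2 units per web for the tested genes of each list, with filled points for genes that passed and the number of genes drawn in parentheses; genes within a list are ordered by slope. Integrin slopes run from -0.45 to 0.48 and laminin slopes from -0.35 to 0.23, while the tested endothelial and leukocyte markers all lie below 0.

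The second comparison set the hindlimb webs against the forelimb webs. Its main fit had limb as the only term, so differences between the webs of a limb counted as spread. With web number left out of the fit, no member passed (edgeR, 0 of 23 at adjusted p under 0.05, each adjusted p = 1.0, and 0 of 23 at an unadjusted p under 0.05, against 0.0209% and 4.04% of all tested genes), and DESeq2 and limma-voom called 0 as well. The limbs' ranges of CPM overlapped in every member, while they lay apart in 2.8% of tested genes. The log2 fold changes, hindlimb over forelimb, ran from -0.54 for ITGA10 to 0.25 for ITGA8, with a median of -0.04 and a median absolute value of 0.08, against -0.01 and 0.10 over all tested genes.

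Comparing the limbs within each web, ITGA8 alone was higher in the hindlimb in all 4 webs, by log2 ratios of 0.26, 0.16, 0.32 and 0.23 in webs 1 to 4, a pattern found in 8.51% of tested genes. ITGB6, ITGB5, ITGA10 and LAMA1 were lower in the hindlimb in all 4 webs, as were 9.07% of tested genes. For ITGB6 the log2 ratios were -0.38, -0.08, -0.31 and -0.29. ITGA8 averaged 157 ± 48.2 CPM in hindlimb webs and 133 ± 40.1 CPM in forelimb webs, and ITGB6 averaged 34.5 ± 11.1 CPM in hindlimb webs and 41.7 ± 14.2 CPM in forelimb webs (SD over the 4 webs). With web number as a block the log2 fold change was 0.24 ± 0.055 for ITGA8 (edgeR, adjusted p = 0.20) and -0.27 ± 0.077 for ITGB6 (adjusted p = 0.34), and no member passed, against 0.167% of all tested genes. These 2 members were under an unadjusted p of 0.05 in the blocked fit, as were 8.88% of tested genes. In the fit with no block, the log2 fold change of ITGA8 was 0.40 without web 1 and 0.06 without web 4 of the hindlimb. It was 0.09 without web 1 and 0.44 without web 4 of the forelimb. Leaving out web 1 or web 4 of the hindlimb gave -0.14 or -0.50 for ITGB6, and leaving out web 4 of the forelimb gave -0.04. Each of these fits sets unequal sets of webs of the limbs against each other, and both genes rose toward web 4.

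The 2 most abundant genes of each partner list did not pass between the limbs either. The log2 fold changes were -0.40 ± 0.13 for POSTN, 0.12 ± 0.23 for FN1, -0.10 ± 0.072 for SPARC, -0.29 ± 0.14 for FBLN1, 0.07 ± 0.096 for RPSA, -0.10 ± 0.065 for DAG1, 0.04 ± 0.11 for PARVB and -0.05 ± 0.11 for VCL (edgeR, adjusted p = 1.0 each). Over the 4 partner lists the lowest adjusted p was 1.0 for the limb and 0.996 for the difference of slopes between limbs. No cell type marker passed between the limbs in the fit with no block. All 6 nerve and Schwann cell markers (median -0.64), 4 tendon and 2 red cell markers lay lower in the hindlimb. HBZ of red cells had -0.88 ± 0.23. All 9 endothelial markers lay higher (median 0.09), and the other marker lists held both signs. The part of these cell types in the limb differences of the members was not tested.

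**Figure D4:**
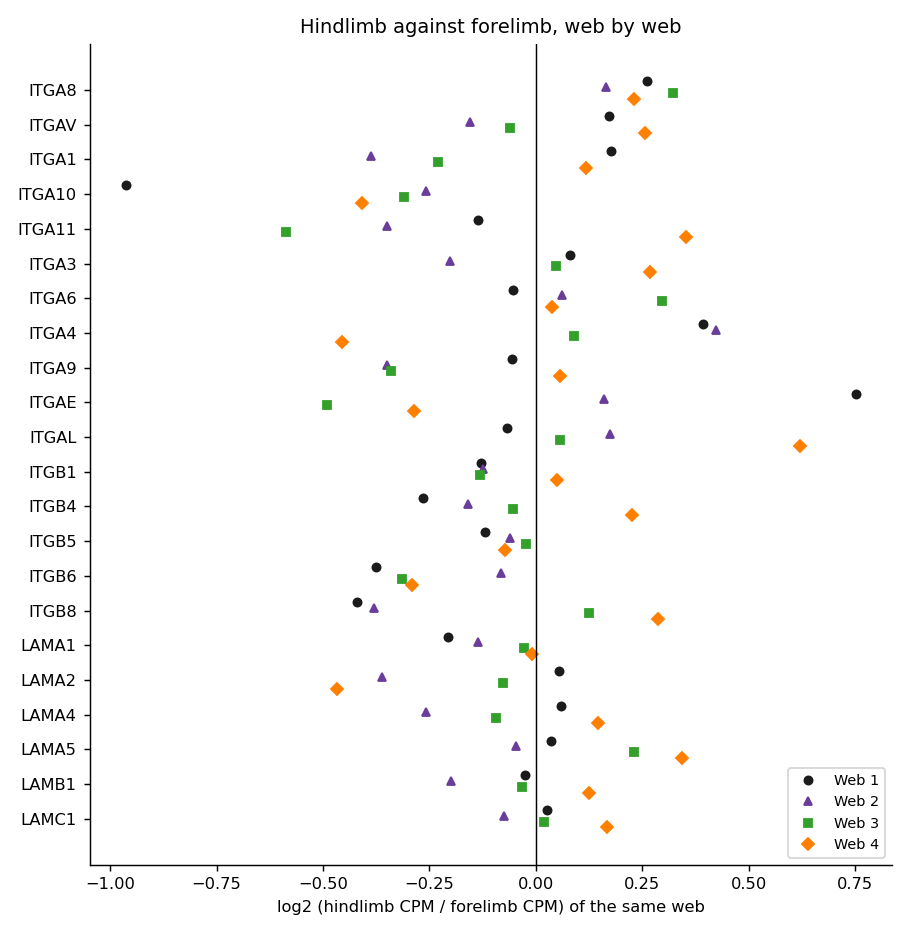
Log2 ratio of hindlimb CPM to forelimb CPM of the same web for 22 members, with 1 symbol per web. ITGA8 lies above 0 in all 4 webs, ITGA10, ITGB5, ITGB6 and LAMA1 lie below 0 in all 4, and the other 17 have webs on both sides.

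The third comparison asked whether the slopes with web number differed between the limbs. No member passed the test of that difference (edgeR, 0 of 23, lowest adjusted p = 0.996), nor did any of the 14386 tested genes (0.0%), and DESeq2 and limma-voom called 0 members. With web as a block it was 0 of 23 too, against 0.00695% of tested genes. At an unadjusted p under 0.05 there were 2 members, ITGB8 and ITGB4, against 3.88% of tested genes. With the block there were 4, which by increasing p were ITGA4, ITGB8, ITGB4 and LAMA5, against 6.17% of tested genes. Of these, ITGA4 had an adjusted p of 0.69 with the block (edgeR). ITGB8, another alphaV partner that activates latent TGF-beta, had 17.9, 18.4, 18.9 and 19.5 CPM in hindlimb webs 1 to 4 and 24.0, 24.0, 17.3 and 16.0 CPM in forelimb webs 1 to 4. The hindlimb values were close to level, while forelimb webs 1 and 2 lay above forelimb webs 3 and 4. Fitted apart, the slope was 0.04 ± 0.060 in the hindlimb and -0.22 ± 0.073 in the forelimb, and the difference, hindlimb minus forelimb, was 0.26 ± 0.083 (unadjusted p = 0.010 and adjusted p = 0.996, edgeR). For ITGB4 the slopes were 0.21 ± 0.039 in the hindlimb and 0.06 ± 0.049 in the forelimb, a difference of 0.16 ± 0.061 (unadjusted p = 0.027 and adjusted p = 0.996, edgeR).

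With each limb fitted alone, 9 members passed in the hindlimb, where 8.94% of genes did, and 4 in the forelimb, where 2.79% did. ITGA8, ITGA9 and ITGA11 passed in both. ITGA8 had slopes of 0.35 ± 0.032 in the hindlimb and 0.34 ± 0.045 in the forelimb, and ITGA9 had 0.49 ± 0.036 in the hindlimb and 0.46 ± 0.083 in the forelimb. ITGA4 passed in the forelimb (0.46 ± 0.072, edgeR adjusted p = 0.018) and not in the hindlimb (0.17 ± 0.092, adjusted p = 0.33), and its difference of -0.29 ± 0.14 did not pass (adjusted p = 0.996). That difference was -0.04 without hindlimb web 4, -0.18 without forelimb web 1 and -0.55 without hindlimb web 1.

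**Figure D5:**
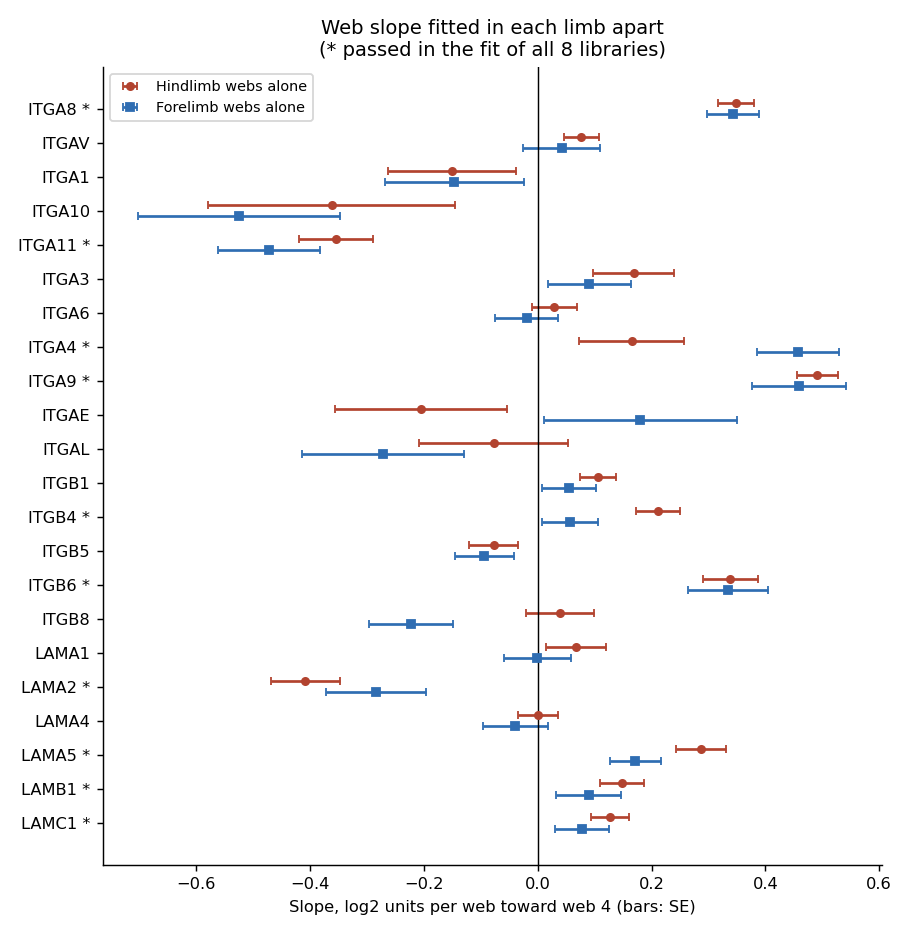
Slope with web number of 22 members in log2 units per web, with bars of 1 SE, fitted in the hindlimb webs alone (circles) and in the forelimb webs alone (squares); asterisks mark members that passed over all 8 libraries. ITGA8, ITGA9 and ITGB6 have nearly equal slopes in both limbs, while ITGB8 has 0.04 in the hindlimb and -0.22 in the forelimb.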

How the data were processed

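The authors deposited whole-number counts per gene, not normalised, and TPM per gene with symbols, scaled by gene length to a fixed total. HISAT2 2.2.1 and StringTie 2.1.7 are named in the submitters' processing notes. The gene identifiers have the Ensembl form for this species (ENSPSIG). The genome build, annotation release and strand setting are not given in the sources used here. Of 20472 counts from 1 to 40, 35.5% were multiples of 4, against 25% in an even spread. Counts were therefore not taken as single read pairs, and counting intervals were left out.

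Counts were tested in R 4.3.3 with edgeR 4.0.16, after filterByExpr (minimum count 10, minimum total 15; 14386 of 19328 genes passed) and TMM scaling (factors 0.973 to 1.02). The terms were limb, then limb and web number, then also their product. Standard errors are the effect divided by the root of F. The tests were tried on simulated counts. DESeq2 1.42.0, limma 3.58.1 (voom, and log2 TPM with pseudocounts 1 and 0.1), other scalings, no filter, left-out libraries and a web block were alternatives.

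Web number was taken to pair the limbs by position, in the fits with a block alone. Deviations of the same web from the limb means correlated at 0.498, 0.189, 0.242 and 0.327. Neighbouring webs reached 0.184 (forelimb web 2 with hindlimb web 1) and 0.237 (forelimb web 3 with hindlimb web 4). Every library pooled the same animals, so shared animals do not single out libraries of the same web. Members and lists were chosen with earlier results of these data known. Values per library are given for members that passed a test and the 2 most abundant of each of 9 groups by role. Of each of the 4 partner lists, up to 3 passing genes per direction with the lowest p are named, or the 2 most abundant. ITGB8, NPNT, PXDN, COL4A5, COL4A6, COL17A1, FERMT1, the slopes given for ITGA10 and the marker genes given as examples, were picked after their values were seen. In RefSeq, 9 more genes match the rule (ITGA2, ITGA2B, ITGA5, ITGA7, ITGB3, ITGB7, LAMA3, LAMB4 and LAMC3). No gene in the deposited tables bore these symbols, and they were not analysed here. Whether any of them is among the 7598 genes without a symbol was not tested. The values of 1 member are not reported here, though counts and medians over the members include it.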

Additional observations from a re-analysis of the deposited data

How the results depend on the processing

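The number of members whose web slope passed was 10, and 4 to 12 over 20 alternatives. It was 6 with limma on log2(TPM + 1) and 6 on log2(TPM + 0.1), 4 in the forelimb alone, and 6 to 10 over the 8 fits that leave out a library, with 6 without hindlimb web 1 or without hindlimb web 3. Calls among all genes moved as well, from 1600 of 14386 to 1436 on log2(TPM + 1) and 1408 on log2(TPM + 0.1). They were 376 of 13500 in the forelimb alone, 875 of 14540 without hindlimb web 1 and 1272 of 14561 without hindlimb web 3. ITGA8, ITGA9 and ITGA11 passed in all 21 fits, and ITGB6, LAMA2 and LAMA5 in 20, each missing in the forelimb alone (adjusted p 0.050, 0.17 and 0.11). ITGA4, LAMC1, ITGB4 and LAMB1 passed in 13, 12, 9 and 8. No slope of the 10 changed sign. Scaling by library size alone, in which 482 genes rose and 1121 fell against 644 and 956, ended the calls of ITGB4, LAMC1 and LAMB1 (adjusted p 0.074, 0.076 and 0.11). DESeq2 added ITGA10 and ITGB1, and over all 14386 tested genes it called 2185 against 1600. ITGB1 passed also with limma-voom and without forelimb web 4, and ITGB5 passed without web 1 of both limbs. Between limbs, and for the difference of slopes, the count of members stayed at 0 in all 17 alternatives of each, the replicate block among them. Precision is limited by 4 libraries per limb and, for ITGA10 at 33 to 144 counts, ITGAE at 111 to 171 and ITGAL at 121 to 245, by depth. The causes of lost calls were not tested.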
